A study of Drosophila melanogaster with 51 samples.

Results

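The JAK/STAT pathway genes are the 7 core genes of this signalling route in Drosophila melanogaster. They are the ligand genes upd1, upd2 and upd3, the receptor gene dome, the kinase gene hop, the transcription factor gene Stat92E and the feedback inhibitor gene Socs36E. They were chosen by name, as 7 of the 13968 protein-coding genes on 7 chromosome arms, and all 7 symbols were found in the annotation. Open chromatin was read at their transcription start sites (TSSs) and in a window from 5 kb upstream of each gene to its end. These windows held 29 of the 16118 open regions listed for basal Kc167 cells.

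Accessibility was assayed by ATAC-seq, where a transposase inserts adapters into DNA that proteins leave exposed. The cells were basal Kc167 cells, an embryo-derived Drosophila line that resembles hemocytes, the blood cells of the fly, and which carried no inducible construct and were given no copper. They were sequenced as 3 biological replicate libraries. The other 48 of the 51 libraries came from 12 stable lines and were not analysed here, so no treatment was compared. The values are positions of regions that the authors called open in at least 2 of the 3 libraries. A gene is called open here when such a region overlapped the 250 bp on either side of any of its TSSs by at least 1 bp, and closed otherwise. The list carries no height, read number or replicate value, so the depth behind a region is unknown, values have no replicate error, and no test between genes was made. Kc167 is a single cell line, and these regions describe it in culture rather than hemocytes in the fly.

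In this pathway, Unpaired ligands bind the receptor Domeless at the cell surface and bring the Janus kinase Hopscotch into action. The kinase phosphorylates Stat92E, which enters the nucleus and binds DNA at the bases TTC and GAA separated by a short spacer. Socs36E is switched on by Stat92E and dampens the signal. In fly blood the pathway is known for hemocyte proliferation and differentiation, and overactive Hopscotch causes overgrowth of blood cells.

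The label of the cells was compared with marker genes. Of 8 hemocyte markers, 6 were open, beside 47.8% of all protein-coding genes, and He and NimC1 were closed. The widest TSS regions of the open ones ran from 313 bp (crq) to 844 bp (the GATA factor gene srp). That of the srp cofactor gene ush was 773 bp. Among the markers of other cells, 1 of 3 was open for crystal cells, for neurons and for muscle, and 0 of 3 for fat body. The open ones were lz (547 bp), elav (852 bp) and Mef2 (699 bp), so wide regions were not particular to hemocyte markers. Lists of 3 and 8 genes are too short to tell such counts from the share of all genes. Markers read from regions show where chromatin was open, not whether the gene was transcribed.

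The DNA at 6 of the start sites is shown first, to set open and closed starts side by side. Each line gives 70 bases before the TSS and 30 from the TSS on, 5′ to 3′ in the direction of transcription, with the TSS base in capitals, from the Release 6 (dm6) sequence. The outermost start of upd1 was closed (chrX:18309262-18309361, minus strand). The start of upd2 was open only upstream (chrX:18243255-18243354, minus strand), and that of upd3 was covered by a region (chrX:18277163-18277262, plus strand). Stat92E has an inner start that was covered (chr3R:20551078-20551177, minus strand) and an outermost start that was closed (chr3R:20552282-20552381, minus strand). The start of Socs36E was covered (chr2L:18152388-18152487, minus strand).
upd1 outermost TSS: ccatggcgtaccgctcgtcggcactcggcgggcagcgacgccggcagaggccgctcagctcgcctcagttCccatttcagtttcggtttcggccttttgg
upd2 TSS: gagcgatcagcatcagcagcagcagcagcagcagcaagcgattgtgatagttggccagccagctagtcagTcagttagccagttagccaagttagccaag
upd3 TSS: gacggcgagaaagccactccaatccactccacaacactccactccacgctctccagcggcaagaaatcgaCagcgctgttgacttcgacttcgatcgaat
Stat92E inner TSS: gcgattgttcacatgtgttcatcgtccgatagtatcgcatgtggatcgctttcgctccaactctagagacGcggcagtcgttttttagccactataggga
Stat92E outermost TSS: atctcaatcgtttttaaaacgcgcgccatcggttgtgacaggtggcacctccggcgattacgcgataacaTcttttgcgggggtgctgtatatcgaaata
Socs36E TSS: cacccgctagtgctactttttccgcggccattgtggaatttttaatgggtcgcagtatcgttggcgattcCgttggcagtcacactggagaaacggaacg

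The 7 genes have 10 annotated TSSs. None of the 10 carried the TATA word TATAAA from -45 to -15, which 7.76% of all 19276 TSSs carried. The initiator letters TCAGT stood within 10 bp of the TSS on the coding strand at 2 of the 10, the outermost start of upd1 and that of upd2, beside 13.1% of all TSSs. A match is a description of the letters and no measure of promoter use.

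Shown next are STAT words that lay wholly inside open regions, since the counts of words further on rest on them. They are the 5 with 3 bases between TTC and GAA and the 11 with 4. A STAT word is TTC, then 3 or 4 bases of any kind, then GAA, read on both strands. The 5 words with 3 bases between (TTCNNNGAA) lay in dome (chrX:19683210-19683238 and chrX:19683236-19683264), hop (chrX:11368044-11368072) and Socs36E (chr2L:18152337-18152365 and chr2L:18151706-18151734), all on the minus strand. They stood 294 and 268 bp inside dome, 40 bp inside hop, and 66 and 697 bp inside Socs36E. Capitals mark the word, with 10 bases on either side.
dome, 294 bp: tataaacggtTTCCGAGAActggccacca
dome, 268 bp: taagagccacTTCCAGGAAcgcagcgtat
hop, 40 bp: tccgatgaatTTCACTGAAattcgtggct
Socs36E, 66 bp: acagatacttTTCGGGGAAgcgatacttc
Socs36E, 697 bp: ttagaccgatTTCTGAGAAgtgacagaca

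The 11 words with 4 bases between TTC and GAA include all 7 in the ligand regions. These lay upstream of upd1 (chrX:18312712-18312741, minus strand) and of upd2 (chrX:18243704-18243733, minus strand), and in 3 regions of upd3. Those of upd3 were upstream (chrX:18275988-18276017), just past the TSS (chrX:18277242-18277271) and in intron 3 (chrX:18282357-18282386, chrX:18282494-18282523 and chrX:18282517-18282546), all on the plus strand. The other 4 lay upstream of the dome TSS (chrX:19683602-19683631) and inside Socs36E (chr2L:18147342-18147371, chr2L:18147197-18147226 and chr2L:18145303-18145332), all on the minus strand.
upd1 upstream: gctctgctctTTCACTCGAAtcggcgctct
upd2 upstream: tgagtaatctTTCTGGTGAAattcagccaa
upd3 upstream: atgagtaataTTCTTGTGAAattgaacgga
upd3 past the TSS: tgacttcgacTTCGATCGAAtcggaatcaa
upd3 intron, nearest the TSS: agcggatcggTTCGGAAGAAgaaatgacct
upd3 intron, middle: cgatatgtgaTTCATATGAAacagagccgt
upd3 intron, farthest: gagccgtggaTTCCCCCGAAactccagcga
dome upstream: gaattcgaatTTCGGCTGAAatgcgatgtt
Socs36E, 780-bp region, nearest the TSS: catttcaattTTCCTGCGAAaaaatatatc
Socs36E, 780-bp region, farthest: tgattttattTTCGAGCGAActtcatttgc
Socs36E, 125-bp region: agttttgtatTTCCATTGAAaaattttgtt

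The first question was whether the starts of the pathway genes were open in these cells. They were open at 6 of the 7 genes, beside 47.8% of all protein-coding genes, and the closed gene was upd1. All 7 genes had at least 1 region in their window, beside 69.5% of all genes. The 29 regions were distinct, so no region served 2 of the 7 genes. At the genes' own TSSs there were 10 regions, of which 5 covered a TSS. At the TSS of a neighbouring protein-coding gene only there were 6, and 13 were at no TSS of a protein-coding gene. TSSs of noncoding genes were not counted here or below. By their midpoints, 11 of the 29 regions lay within a TSS window, 11 in introns, 4 between genes, 1 in a 5′ UTR, 1 in coding sequence and 1 in another exon.

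**Figure D1:**
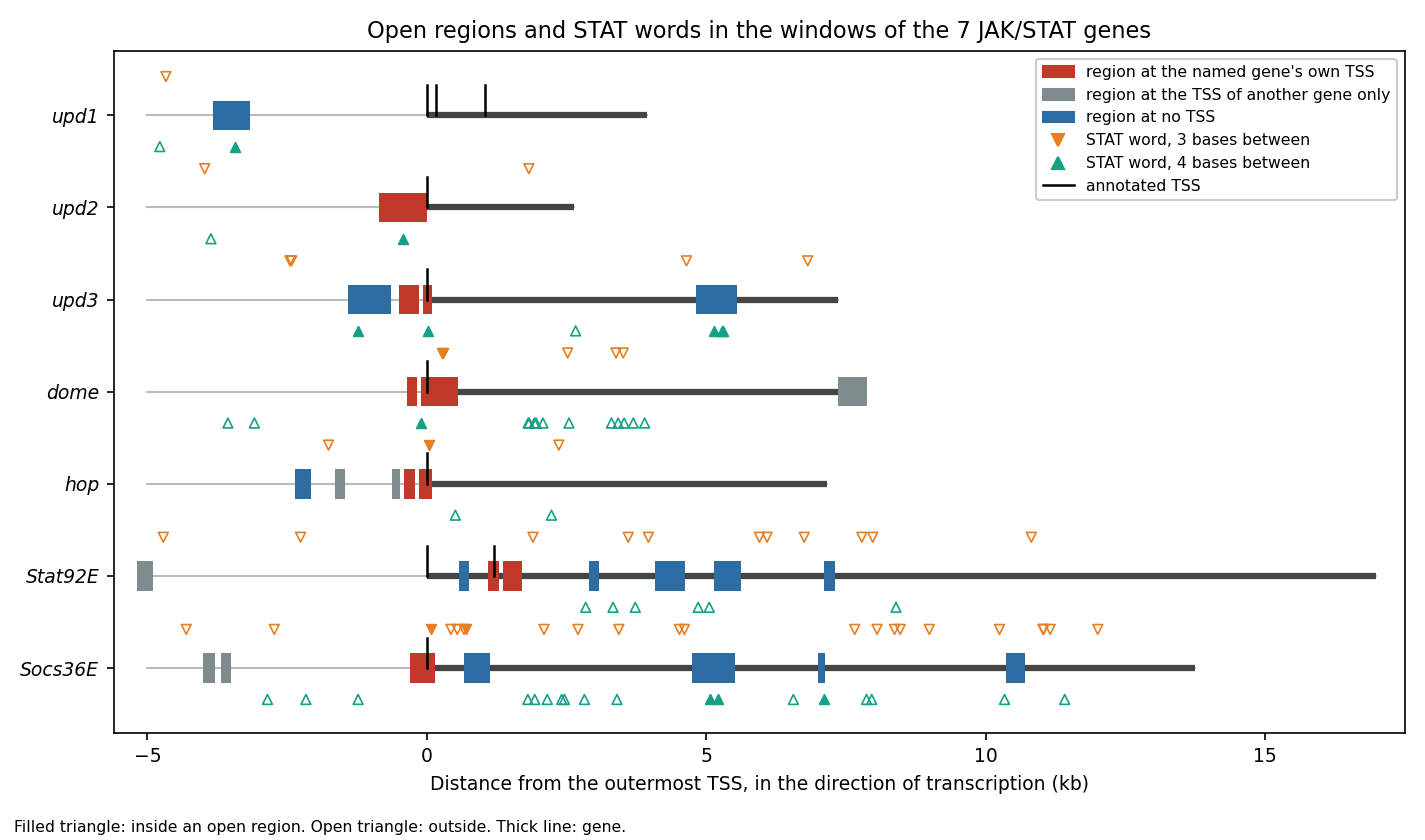
Open regions (boxes, to scale) and STAT words (triangles) in the windows of the 7 genes, by distance in kb from the outermost TSS in the direction of transcription, with the gene as a thick line and each TSS as a vertical line. The nearest region to upd1 was 3165 bp from its outermost TSS, hop had no region past its start, and the 7 regions inside Stat92E lay in the front part of the gene.

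The 3 ligand genes encode secreted Unpaired cytokines and lie together on the X chromosome, upd2 first, then upd3, then upd1. The gene upd1 (FBgn0004956, X 18305354 to 18309291, minus strand), whose product patterns the embryo and acts in eye growth, had 3 annotated TSSs and none was open. The nearest region lay 3165, 3327 and 4197 bp from them. It was the only region in the upd1 window, 655 bp wide (X 18312456 to 18313110), with its midpoint at -3492 bp from the outermost TSS and a GC content of 60.3%, the highest of the 29.

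The gene upd2 (FBgn0030904, X 18240654 to 18243284, minus strand) encodes the ligand known from the fat body as a nutrient signal. It also had 1 region, but this was the widest of the 29 at 857 bp (X 18243286 to 18244142). The region began 2 bp upstream of the TSS and lay wholly upstream of it. Of the 6670 genes with an open TSS, 97.1% had a narrower widest TSS region, and the median over them was 232 bp. The gene body of upd2 held no region.

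The gene upd3 (FBgn0053542, X 18277233 to 18284596, plus strand) encodes the cytokine that hemocytes release on infection or injury. It had 4 regions, and 3 of them stood in a row at its start. A region of 766 bp (X 18275820 to 18276585) lay farthest upstream, a region of 364 bp (X 18276726 to 18277089) followed after 140 bp, and a region of 170 bp (X 18277157 to 18277326) followed after 67 bp and covered the TSS. The fourth region was 739 bp wide in intron 3 (X 18282053 to 18282791). Of its window, 16.5% was open, the highest share of the 7 genes, and 95.6% of all genes had a lower share.

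Across the stretch that holds the 3 ligand windows, 78.6 kb of X (18235654 to 18314291), there were 10 regions, and 4 of them lay outside the 3 windows. Of these 4, the wider pair measured 574 and 751 bp and lay between upd3 and upd1, at 47.7 and 48.9 kb from the upd2 TSS. The others were 141 and 132 bp wide. Open regions covered 6.55% of the stretch, beside 4% of X, at 1.27 regions per 10 kb, beside 1.33 on X. Open DNA in the cluster was thus spread over about as many regions per kb as on X, but over more bases. The longest gap ran for 19931 bp (X 18292525 to 18312455) and held the whole of upd1.

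**Figure D2:**
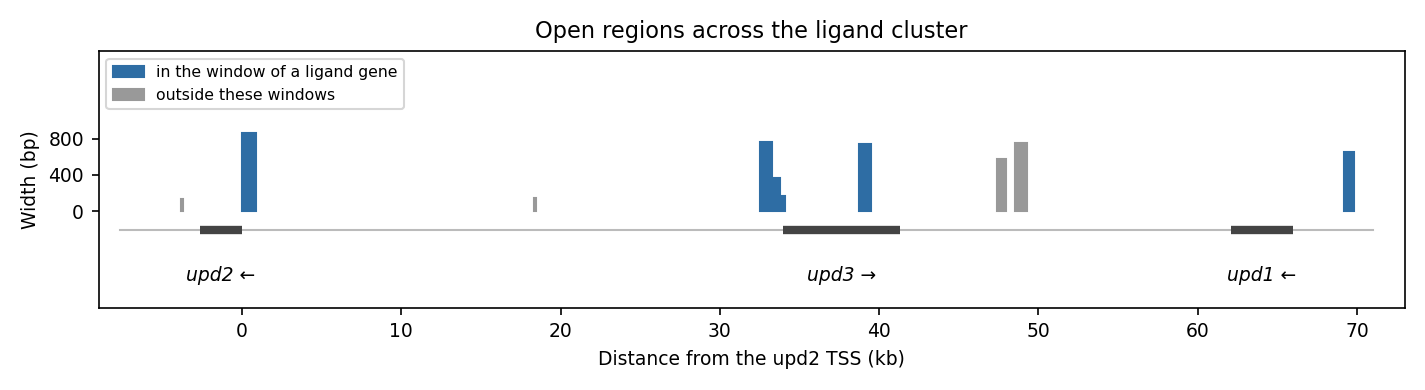
The 10 open regions across the ligand cluster by distance from the upd2 TSS in kb, with bar height and bar width both giving the region width in bp, and the 3 genes as thick lines with arrows for their direction. Regions stood at the start of upd2, and at the start of and inside upd3, and upd1 lay in the gap of 19931 bp.

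The receptor gene dome (FBgn0043903, X 19676061 to 19683518, minus strand) was open at its only TSS. A region of 663 bp (X 19682963 to 19683625) covered the TSS, and 92.8% of open genes had a narrower one. It also reached the TSS window of the neighbour Ubqn, a ubiquilin gene, as did a region of 184 bp on the Ubqn side (X 19683698 to 19683881). The third region, 515 bp wide (X 19675649 to 19676163), lay at the far end of dome over the TSS of et, which encodes a short receptor of the same family that damps the signal. All 3 dome regions therefore also lay in the window of a neighbouring gene, and no region was private to dome. The 663-bp region held 11 matches of GAGAGAG, the word bound by GAGA factor, counting overlapping ones, at 110 to 468 bp past the TSS in exon 1.

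The kinase gene hop (FBgn0004864, X 11360930 to 11368098, minus strand) encodes the only Janus kinase of the fly. It had 5 regions, all at its start or upstream of it. A region of 241 bp (X 11368000 to 11368240) covered the TSS, near the median of open genes, with 53.5% of them narrower. It lay together with a 190-bp region in the TSS windows of both hop and Tim8, a mitochondrial import gene. A 127-bp region lay at the Tim8 TSS alone and a 177-bp region at a TSS of dlg1, a gene for a junction scaffold, and a 300-bp region lay inside dlg1. Each of the 5 was also in the window of dlg1 or Tim8. Of the hop gene itself, 1.38% was open, and no region was centred in it past its start.

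The factor gene Stat92E (FBgn0016917, 3R 20535323 to 20552311, minus strand) had 8 regions, and 97% of all genes had fewer. It has 2 TSSs that are 1204 bp apart. The inner TSS, used by 6 of the annotated transcripts, was covered by a region of 199 bp, with a second of 350 bp beside it. The outermost TSS, used by 5 transcripts, had no region in its window, and the nearest was 575 bp away. The gene thus counted as open by its inner TSS.

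Of the 8 Stat92E regions, 7 lay inside the gene and all 7 were in intron 1 of the transcripts that start at the outermost TSS. They measured 184, 199, 350, 190, 539, 496 and 194 bp in order from the TSS, and the last had its midpoint 7208.5 bp from it. The widest pair, of 539 bp (3R 20547695 to 20548233) and 496 bp (3R 20546685 to 20547180), lay past both TSSs. The eighth, of 285 bp, lay upstream at the TSS of DPCoAC, a mitochondrial carrier gene. Unlike those of dome and hop, 7 of the 8 Stat92E regions lay in no other protein-coding gene's window. Windows of noncoding genes were not compared.

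The inhibitor gene Socs36E (FBgn0041184, 2L 18138675 to 18152417, minus strand) encodes a suppressor of cytokine signalling and is a standard target of Stat92E. It had 7 regions, and 95.6% of all genes had fewer. A region of 446 bp (2L 18152267 to 18152712) covered its TSS. The gene's long intron 1 held a region of 463 bp near the start (2L 18151288 to 18151750), another of 780 bp (2L 18146897 to 18147676) and the narrowest of the 29, of 125 bp. The region of 349 bp (2L 18141711 to 18142059) lay in coding sequence, with a GC content of 59.9%. The remaining pair, of 229 and 189 bp, lay upstream at TSSs of CG5783. Of the 7 regions, 2 lay in no other protein-coding gene's window. Of these 2, the 125-bp region had its midpoint inside a noncoding gene, lncRNA:CR44478. The TSS region and the 463-bp region also lay in the windows of CG5783, CG15155 and CG17681. Open regions covered 13.8% of the window, and 91.7% of all genes had a lower share.

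Across the 7 genes the widths ran from 125 to 857 bp with a median of 300 bp, beside 233 bp over all regions, whose quartiles were 172 and 370 bp. Of the 29 regions, 8 were 500 bp or wider, beside 13.7% of all regions. Of these 8, the regions at no protein-coding TSS were those of upd1 (655 bp), upd3 (766 and 739 bp), Stat92E (539 bp) and Socs36E (780 bp). Width is the only size the list gives, and it depends on the peak caller as well as on the chromatin.

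**Figure D3:**
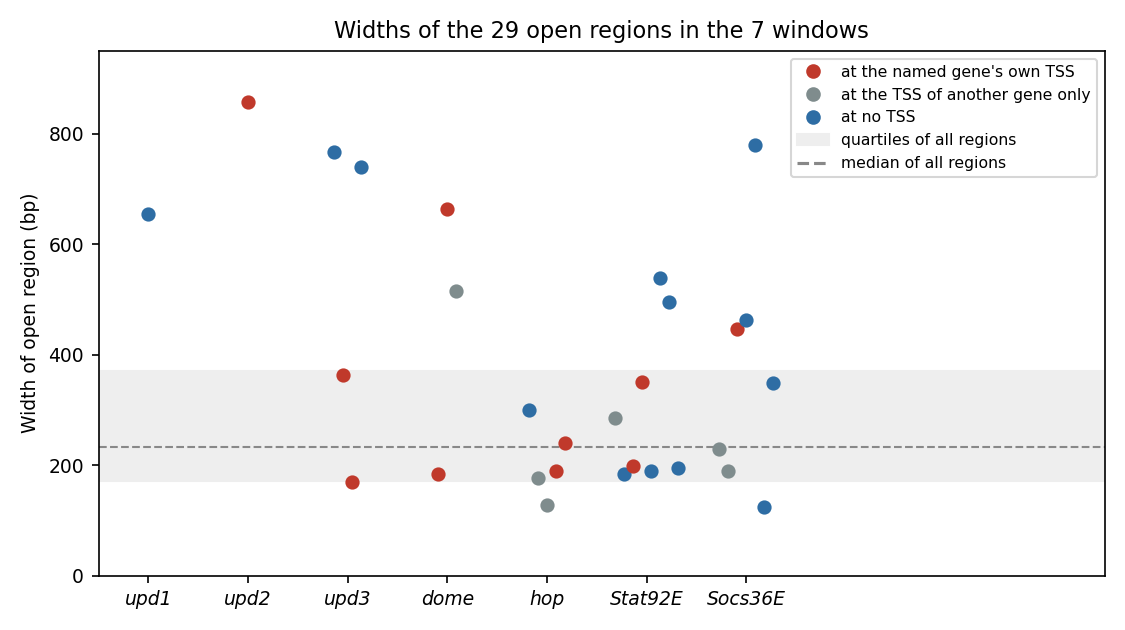
Width in bp of each of the 29 open regions by gene, coloured by whether the region was at the gene's own TSS, at the TSS of another gene only or at no TSS. Only TSSs of protein-coding genes were counted. The grey band gives the quartiles of all regions (172 and 370 bp) and the dashed line their median (233 bp). The widest was the 857-bp region of upd2, and all 5 hop regions were 300 bp or narrower.

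The number of regions was 1 for upd1 and upd2, 3 for dome, 4 for upd3, 5 for hop, 7 for Socs36E and 8 for Stat92E. The median of the 7 was 4, beside a median of 2 and quartiles of 0 and 3 over all genes. The windows differ in length, and the 7 genes are long, with 57.6% of all genes shorter than the shortest of them and 91.2% shorter than the longest. Per 10 kb of window the median of the 7 was 3.24, beside 1.69 over all genes with quartiles of 0 and 3.44. Above the upper quartile were hop (4.11), Socs36E (3.73) and Stat92E (3.64), and below the median were upd1 (1.12) and upd2 (1.31).

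The covered share of the window was above the median of all genes, 4.23%, in all 7. It was 7.33% in upd1, 7.63% in dome, 8.51% in hop, 10.3% in Stat92E, 11.2% in upd2, 13.8% in Socs36E and 16.5% in upd3. The upper quartile of all genes was 8.53%, which the last 4 passed. These shares depend on the window: with 2 kb upstream upd1 fell to 0%, and with the gene alone upd1 and upd2 were at 0% and hop at 1.38%. The order differs from that of region numbers, since upd2 had 1 wide region and hop had 5 narrow ones.

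**Figure D4:**
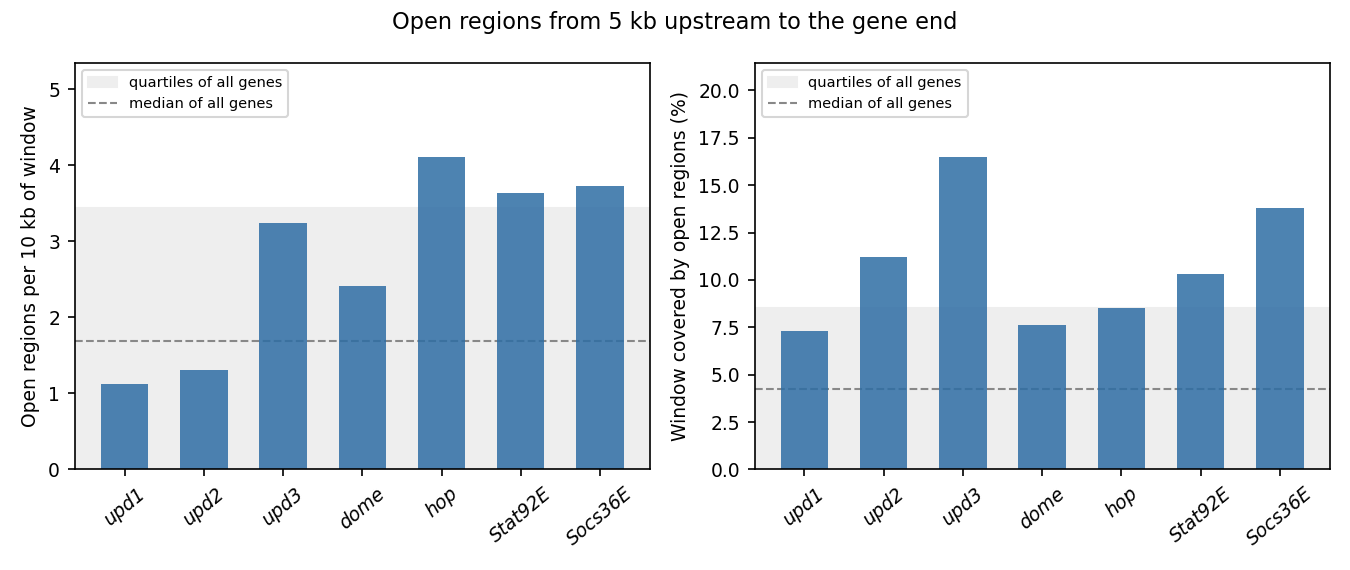
Open regions per 10 kb of window (left) and percent of the window covered by them (right) for each gene, with the quartiles of all 13968 genes as a grey band and their median as a dashed line. By number hop stood highest at 4.11 per 10 kb and by covered share upd3 at 16.5%.

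STAT words were then counted in the regions. With 3 bases between TTC and GAA they occurred in 4 of the 29 regions (13.8%), beside 6.79% of all 16118 regions and 8.14% of regions within 10% of the same widths. These were the TSS regions of dome, hop and Socs36E and the intron region of Socs36E next to its start. With 4 bases between, they occurred in 8 of the 29 (27.6%), beside 7.74% of all regions and 9.5% at like widths. Of the 11 words of this kind, 7 were in the ligand regions, 3 in Socs36E and 1 in dome. The ligand regions held no word with 3 bases between, and their windows held 1 in upd1, 2 in upd2 and 4 in upd3. The 8 Stat92E regions held neither kind. The shares of 8.14% and 9.5% at like widths are for all 29 regions. The 8 regions are too few to read their lack of words as a trait of Stat92E, and it was not tested.

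The words were also counted outside the regions of the same windows. With 4 bases between, there were 11 words in 10371 open bases, or 1.06 per kb, beside 39 words in 83921 closed bases, or 0.465 per kb. Over the 7 arms the values were 0.271 inside and 0.332 outside. With 3 bases between, they were 0.482 inside and 0.512 outside in the windows, beside 0.24 and 0.325 over the arms. For upd3, 5 of its 6 words with 4 bases between lay in open regions, at 2.45 per kb inside and 0.0969 outside.

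Socs36E and dome carried most words, and most of theirs were in closed DNA, as was most of each window. Open regions covered 13.8% of the Socs36E window, 7.63% of that of dome and 10.3% of that of Stat92E. In open regions lay 2 of the 5 dome words with 3 bases between and 3 of the 18 Socs36E words with 4. The Socs36E window held 22 words with 3 bases between, 1.17 per kb, and 99.7% of all genes had fewer per kb. Of these 22, 20 were inside the gene and 2 lay wholly in an open region. Words not wholly inside but within 250 bp of a region numbered 6, among them 1 that crossed the edge of the 463-bp intron region. The most words within 1 kb were 5, from 66 to 697 bp inside the gene. The dome window held 14 words with 4 bases between, 1.12 per kb, and again 99.7% of genes had fewer per kb. Of those, 1 was in an open region, and 11 stood from 1.81 to 3.9 kb past the TSS, in the intron of 2501 bp, where no region was listed. The Stat92E window held 11 words with 3 bases between and 6 with 4, and 0 of either were in its 8 regions.

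**Figure D5:**
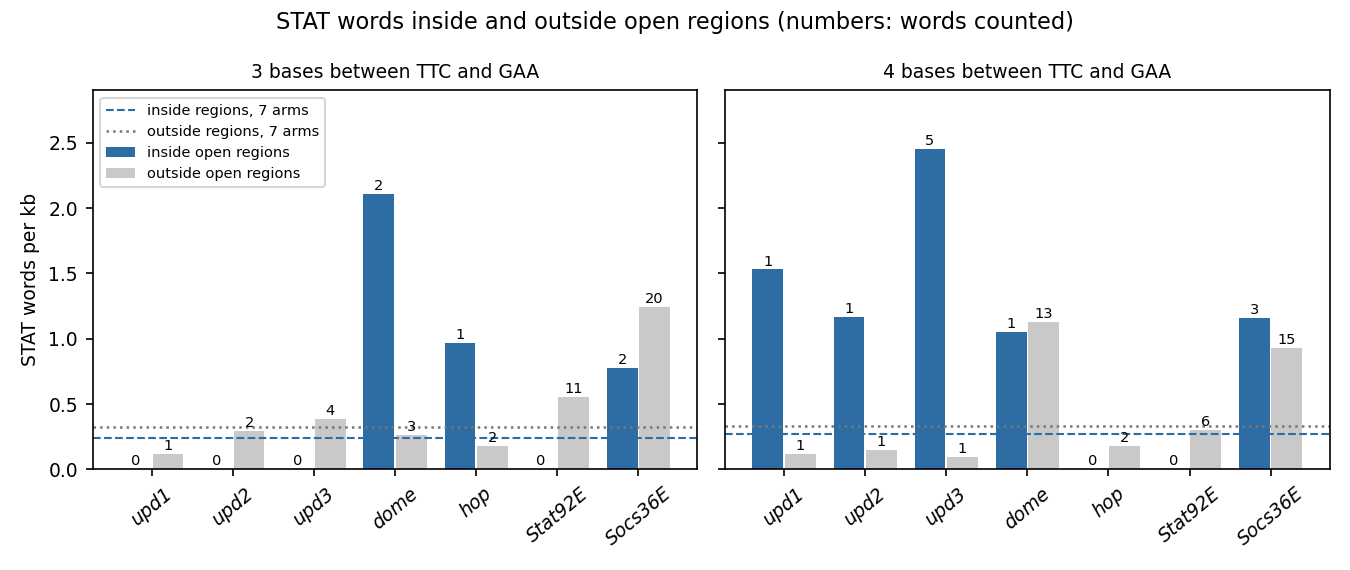
STAT words per kb inside (blue) and outside (grey) open regions in the window of each gene, with 3 bases (left) or 4 bases (right) between TTC and GAA, the number of words above each bar, and the values over the 7 arms as lines. In the right panel the ligand genes and Socs36E stand higher inside than outside, for upd1 and upd2 with 1 word on each side. In the left panel 20 of the 22 Socs36E words were outside, in a window of which 13.8% was open. Several bars rest on 1 word.

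Other words were counted in the 29 regions in the same way, beside their share over all regions and over regions within 10% of the same widths. GATAAG, the word of GATA factors, was in 7 of 29 (24.1%), beside 19.6% of all regions and 23.3% at like widths. TGANTCA, bound by AP-1, was in 4 (13.8%), beside 8.01% and 9.99%. GAGAGAG was in 6 (20.7%), beside 14.5% and 18.6%, and TATAAA in 8 (27.6%), beside 22.9% and 26.7%. The promoter words TATCGATA (DRE) and GGTCACAC (M1BP) were in 1 and 2, beside 5.36% and 5.28% at like widths. The E-box CACGTG and the homeodomain word TAATTA were each in 2, beside 5.37% and 12.6% at like widths. The 4 AP-1 words lay in upd1, upd3, Stat92E and Socs36E.

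Other genes of the pathway were read by the same rule, from a list chosen with earlier results of these data known. A count over such a list cannot be read as a trait of the pathway. Of 12 regulators, 12 had an open TSS, beside the same 47.8% of all genes, and 8 when only regions of at least 200 bp counted, beside 30.9% of all genes. The 4 that then closed were Socs44A, Stam, Hrs and BRWD3, which are named because of these values and had widest TSS regions of at most 180 bp. The 12 had a median widest TSS region of 256 bp and 1 to 26 regions in their windows. The widest TSS regions were at apt (754 bp), which encodes a repressor of Stat92E signalling in ovarian border cells, at Socs16D (603 bp), a further Socs family gene, and at et (515 bp), whose region is the one shared with dome.

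Among 12 genes known as STAT targets, 6 were open, a share of 50% that is near the 47.8% of all genes. The widest regions were at eve (887 bp), a pair-rule gene of the embryo, at zfh1 (645 bp), a transcription factor gene of blood and muscle precursors, and at vir-1 (599 bp), a gene induced by viruses. Closed were the stress genes TotA, TotC and TotM, the complement-like Tep1, the secreted immune factor gene Diedel and slbo, the border cell factor gene. TotM and Diedel had 4 and 3 regions in their windows though their TSSs were closed, whereas TotA and TotC had 0.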

How the data were processed

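The deposited file gives only the chromosome, start and end of each open region, as positions. As the methods and the submitters' notes state, alignment by the authors used Bowtie 1.2.2 and dm6, keeping single alignments. They moved reads by 4 bp (plus strand) or 5 bp (minus strand), as suits the transposase, called regions with MACS2 2.1.1.20160309 (q threshold 0.01, extension 100) in each of 3 libraries, and kept those open in at least 2. Sequence repeated elsewhere could not be called open under this rule, and 100% of the 36-bp and 50-bp words of these genes' TSS windows were unique.

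Regions were compared with Ensembl release 115 genes and the Release 6 sequence (Python 3.11.15, pandas 2.3.3, numpy 2.4.6). Overlap and word counting were tested on simulated data. The named genes are the 7 pathway genes and, of the other lists, the 3 with the widest TSS region and every closed gene, with neighbours where a region is shared. Of these lists arj was matched as asrij. Members and lists were chosen with earlier results of these data known. The TATA and initiator words, STAT words outside regions and RefSeq TSSs were added after seeing the data.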

Additional observations from a re-analysis of the deposited data

How the results depend on the processing

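The number of open genes was 6 with TSS windows of 100 or 500 bp, with regions of at least 200 bp and with RefSeq TSSs (chosen after seeing the data). It was 5 when the midpoint had to lie in the window, which closed upd2, and 5 with the outermost TSS only, which closed Stat92E. The share of all genes under the planned settings ran from 30.9% to 50.4%. Of the 12 other pathway genes, 12 had an open TSS with windows of 100 and 500 bp and 8 with regions of at least 200 bp, and the STAT targets moved by less than 1.5 times. Of 40 alternative region numbers, 29 stayed within 1.5 times. The others were 0 for upd1 with 2 kb upstream, 2 for upd1 and 6 for dome with 10 kb, and 17 in all with the gene alone (0 for upd1, 0 for upd2, 2 for upd3, 1 for hop). With regions of at least 200 bp they were 18 in all, 2 for hop and 4 for Stat92E. With a window of 100 bp the widest TSS region was 170 bp for upd3 and 199 bp for Stat92E. The covered share depended most on the window. With 2 kb upstream it was 0% in upd1, 18.5% in upd2, 21.8% in upd3, 10% in dome, 8.02% in hop and 11.3% in Stat92E. With the gene alone it was 0% in upd1, 0% in upd2, 11.3% in upd3, 8.84% in dome, 1.38% in hop and 12.7% in Stat92E. In the 200 bp around midpoints, regions with a STAT word of 3 bases between numbered 2 (6.9%), beside 4.51% of all regions. With 4 bases between they numbered 8 in whole regions. In the 200 bp these were 6 (20.7%), beside 5.3% of all regions. These settings differ in the bases counted, and what caused each change was not tested. No replicate could be left out because the list pools them, and depth cannot be read from it. No paired analysis was possible because the result comes from no test.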

Other observations

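Upstream of upd2 and upd3 the open regions shared letters beside their STAT words, a pattern noticed in the data and given as values only. The 10-base word tatgagtaat stood 2 bases before the STAT word of upd2 and 1 base before that of upd3. On the 7 arms the word occurred 816 times, and a STAT word with 4 bases between followed it within 3 bases at 4 places. Of these 4, 2 were at an open region, and they were those of upd2 and upd3. The word was itself read from the bases beside these STAT words in open regions. Both places were therefore bound to be counted and to be open, and the count says nothing about how particular the word is.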
